A study of Mus musculus with 19 samples.

Results

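TREM2, the sialic acid-binding Siglecs and the signal regulatory proteins (SIRPs) are surface receptors through which microglia and macrophages read lipids, sialylated glycans and the "self" protein CD47. The 8 genes described here were chosen by name as a receptor and adaptor family: Trem2, Tyrobp, Siglece, Siglec1, Cd33, Sirpa, Sirpb1c and Cd47. All 8 were among the 13783 genes listed for sorted brain myeloid cells, and 7 were among the 15634 genes listed for whole hippocampus, where Sirpb1c had no row and was not analysed. RNA was sequenced from mice given 1100 cGy of split-dose total-body irradiation and 5000000 T-cell-depleted (TCD) bone marrow cells, which the GVHD and TCD groups shared. The graft-versus-host disease (GVHD) groups also received 500000 splenic T cells. On day 70 after transplant, cells were sorted from the brain as GVHD donor cells (labelled bone marrow-derived macrophages, 6 libraries), GVHD host cells (labelled microglia, 4 libraries) and TCD host cells (labelled microglia, 3 libraries). Hippocampus was taken on day 80 from 3 GVHD and 3 TCD mice.

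The labels do not give the strain, sex or age of donors or recipients, or the sort gates. No donor cells of TCD mice were analysed here, so cell origin and whatever goes with it (genome, cell type, response to GVHD) cannot be told apart in a donor-host comparison, and against TCD hosts origin and GVHD cannot be told apart either. The title puts TCD host library 1 in the TCD group, while Syn stands in its description in place of TCD, which leaves its transplant group uncertain. The sorted libraries carry 1 of 2 codes, API_183 or API_197, whose meaning is not stated. Library 1 of each sorted group is API_183. Nothing in the labels says that each library came from a separate mouse, so p-values measure only the spread between these samples.

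Values are the authors' normalised counts. On this scale the library totals were 1051500 to 1090630 in donor and 890565 to 961740 in host libraries, so all donor totals lay above all host totals, and results that change when totals are made equal are marked as such. The estimated depth was 7901520 to 35844800 reads per sorted library and 16673600 to 18546900 per hippocampus library. Markers of both cell types differed between the sorted groups. The summed value of 11 microglia markers was 15174 to 23901 in donor libraries and 50245 to 74954 in host libraries, and that of 9 markers of marrow-derived brain macrophages was 11732 to 20222 in donor and 327 to 1019 in host libraries. TCD host library 1 stood apart in 6 border-associated macrophage markers, with a summed value of 598 against 103 and 105 in the other TCD host libraries. Neutrophil markers (5 of 8 listed) summed to 576 in donor library 1 and to 7.81 to 95.4 in the other donor libraries. T-cell markers (6 of 8 listed) summed to 2.25 to 26.5 across the sorted libraries.

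TREM2 has almost no signalling tail of its own and passes its signal through DAP12, the product of Tyrobp, whose immunoreceptor tyrosine-based activation motif (ITAM) recruits the kinase SYK. In microglia this pair is known for sensing lipids and apolipoproteins and for sustaining phagocytosis and survival. Most Siglecs, and SIRPα, do the reverse: inhibitory motifs (ITIMs) in their tails recruit the phosphatases SHP-1 and SHP-2, and SIRPα does so when it meets CD47 on another cell. SIRPβ1 proteins resemble SIRPα on the outside but lack its inhibitory tail and couple to DAP12.

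The members lie on 5 chromosomes of GRCm38. Trem2 (ENSMUSG00000023992) is at chr17:48346401-48354147, Tyrobp (ENSMUSG00000030579) at chr7:30413760-30417585 and Cd47 (ENSMUSG00000055447) at chr16:49800533-49915010, all on the plus strand. Siglece (ENSMUSG00000030474, chr7:43651070-43660161) and Cd33 (ENSMUSG00000004609, chr7:43524216-43544428) are both on the minus strand of chromosome 7. Siglec1 (ENSMUSG00000027322, chr2:131069220-131086765, minus strand) and Sirpa (ENSMUSG00000037902, chr2:129592835-129632228, plus strand) share chromosome 2. Sirpb1c (ENSMUSG00000074677) is at chr3:15795145-15848528 on the minus strand, on the same chromosome as its near-copies Sirpb1a and Sirpb1b. All 8 are protein-coding.

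The Sirpb1 sequences are shown because they set how far the Sirpb1c value can be read as 1 gene. The first 60 coding bases of 4 Sirp transcripts follow, 5′ to 3′, from the GENCODE transcripts of GRCm38, with capitals where a base differs from Sirpb1c at the same place.
Sirpb1c: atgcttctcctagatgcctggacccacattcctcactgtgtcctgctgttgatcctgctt
Sirpb1a: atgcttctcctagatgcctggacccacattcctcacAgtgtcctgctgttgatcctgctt
Sirpb1b: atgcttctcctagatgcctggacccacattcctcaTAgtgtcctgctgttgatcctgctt
Sirpa: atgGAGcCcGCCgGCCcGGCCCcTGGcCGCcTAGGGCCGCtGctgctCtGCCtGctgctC

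Sirpb1a differed from Sirpb1c at 1 of these 60 bases and Sirpb1b at 2. Sirpa differed at 37, but it was compared place by place without alignment, so this count does not measure how far the genes diverged. Over the whole coding sequence of 1191 bases, the 3 Sirpb1 genes were 97.4% to 98.3% identical in pairs without gaps. Of all 50-base stretches in Sirpb1c transcripts, 46.1% also occurred in another gene, 42.3% in Sirpb1b and 22.7% in Sirpb1a. Sirpa shared no 50-base stretch with any other gene. The split of reads among the Sirpb1 copies is therefore uncertain, and their sum is given beside Sirpb1c, while the Sirpa value does not share reads of that length with them.

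The likeness extended to the promoters. The 3 windows below run from 250 bases before to 50 after the RefSeq gene start (GRCm38.p6, minus strand, written 5′ to 3′ along the gene). These windows are shown because the values of the copies, which may share reads, moved together. They lie at chr3:15426378-15426677 for Sirpb1a, chr3:15575016-15575315 for Sirpb1b and chr3:15848438-15848737 for Sirpb1c. Capitals mark the core of an interferon-stimulated response element, which is GAAA, any 2 bases and GAAA again, searched on both strands.
Sirpb1a: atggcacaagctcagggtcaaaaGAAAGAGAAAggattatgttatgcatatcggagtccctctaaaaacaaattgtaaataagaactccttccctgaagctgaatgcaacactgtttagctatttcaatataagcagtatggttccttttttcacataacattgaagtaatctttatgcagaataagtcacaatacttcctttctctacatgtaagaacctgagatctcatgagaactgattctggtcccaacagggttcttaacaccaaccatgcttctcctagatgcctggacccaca
Sirpb1b: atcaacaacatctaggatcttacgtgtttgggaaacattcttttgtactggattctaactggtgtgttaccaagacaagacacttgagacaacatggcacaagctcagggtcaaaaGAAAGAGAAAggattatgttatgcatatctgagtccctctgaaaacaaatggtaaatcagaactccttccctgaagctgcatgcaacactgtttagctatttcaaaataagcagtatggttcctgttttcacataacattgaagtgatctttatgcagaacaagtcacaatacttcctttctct
Sirpb1c: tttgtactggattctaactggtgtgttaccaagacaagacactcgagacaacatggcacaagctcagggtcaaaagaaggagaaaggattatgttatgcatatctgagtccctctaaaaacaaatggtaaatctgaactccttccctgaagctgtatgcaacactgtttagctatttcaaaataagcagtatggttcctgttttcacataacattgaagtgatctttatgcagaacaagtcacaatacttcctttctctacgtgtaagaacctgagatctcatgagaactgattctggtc

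After sliding 1 window along the other, Sirpb1c matched Sirpb1b at 98.1% of 259 bases and Sirpb1a at 95.6% of 248 bases. The response element core was present in the Sirpb1a and Sirpb1b windows and had no match in that of Sirpb1c. Among 32851 mouse promoters of the same length, 3.44% held it. The purine-rich core GAGGAA bound by PU.1, the lineage factor of myeloid cells, was found on either strand in 28.3% of all promoters. It occurred 3 times in the Siglece window and 1 time each in those of Cd33 and Trem2, and had no match in the windows of Cd47 and the Sirpb1 genes. The RefSeq promoter table matched 5 of the 8 members, without Tyrobp, Siglec1 and Sirpa. These matches describe letters, not binding.

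In GVHD mice, donor macrophages had less Trem2 than host microglia, far more Sirpb1c and Siglec1, and slightly more Cd47. With library totals made equal the Cd47 difference was smaller and did not pass the test. Tyrobp, Siglece, Cd33 and Sirpa did not pass the test. A gene was called when limma's p, adjusted by Benjamini-Hochberg over all 13086 genes tested, was under 0.05. Of the 8 members, 3 were called higher and 1 lower. Over all genes tested, 38.6% were called in this comparison (19.4% higher, 19.2% lower), so 4 of 8 is close to the background share. An unadjusted p under 0.05 was found for 5 of 8 members and for 47% of all genes. Donor and host libraries did not overlap for Trem2 (lower), Siglec1 and Sirpb1c (higher), as for 14.6% and 13.3% of all genes in those directions. The median log2 fold change was 0.27 over the members and 0.04 over all genes. With library totals made equal, the median of all genes was -0.12, the called genes split into 1835 higher and 3618 lower in place of 2533 and 2519, and the members into 2 higher and 2 lower.

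**Figure D1:**
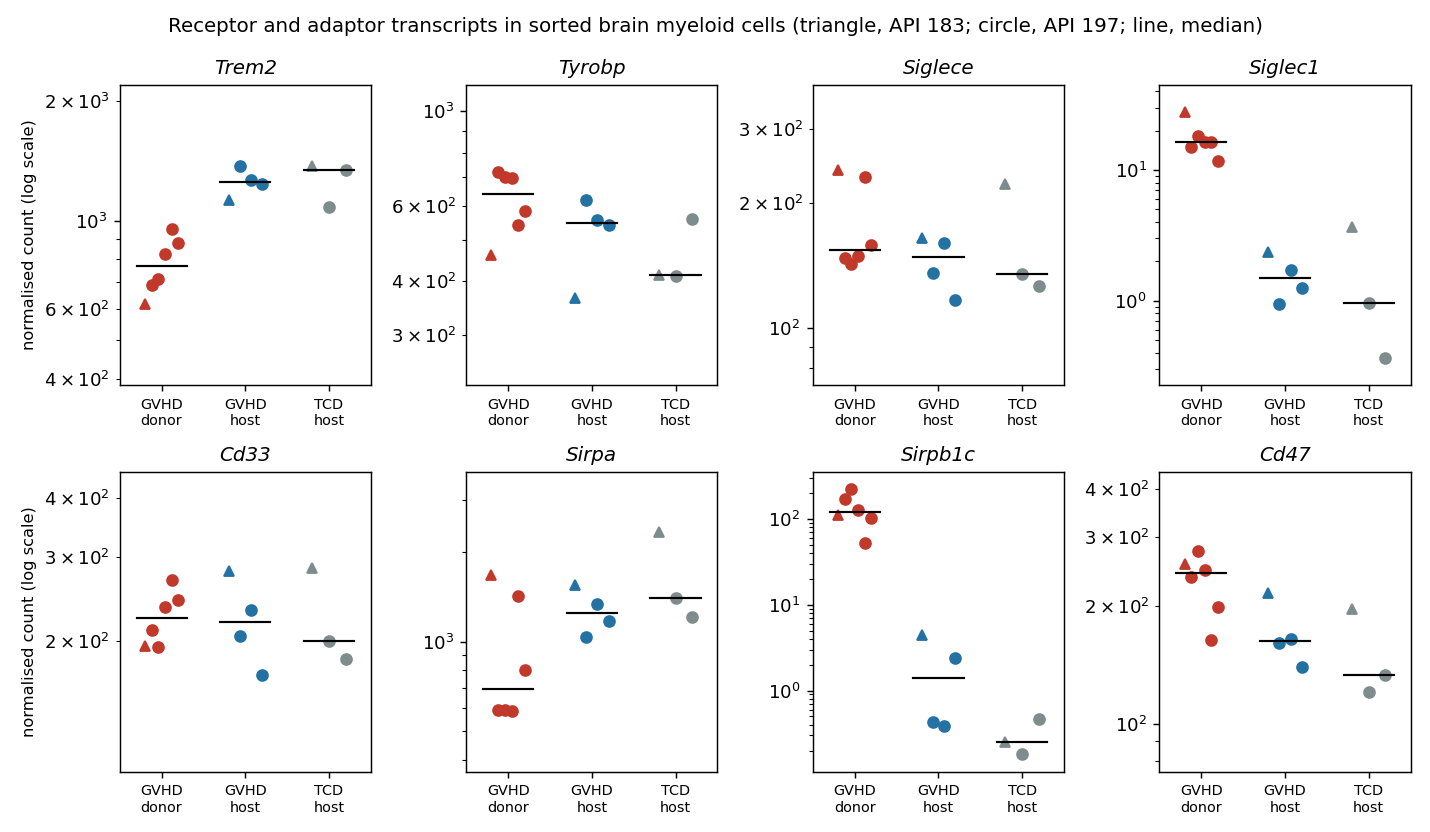
Normalised count (log scale) of each member in every sorted library of the GVHD donor, GVHD host and TCD host groups; triangles are API_183 libraries, circles API_197, and lines group medians. Trem2 is below every host library in all 6 donor libraries, while Siglec1 and Sirpb1c are above every host library.

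Trem2, the lipid-sensing receptor itself, stood at 1125, 1369, 1266 and 1235 normalised counts in GVHD host libraries 1 to 4. In the TCD host libraries it was 1372, 1080 and 1337. The donor libraries ran from 617 to 955 with a median of 769. Every donor library was below every host library, and the 2 host groups overlapped. Donor macrophages held 0.61 times the GVHD host level, a log2 fold change of -0.71 ± 0.13 (SE; limma, adjusted p = 0.000645), and -0.73 ± 0.14 against TCD host cells (limma, adjusted p = 0.00116). The donor value was the lower of both in 4 of 4 donor-host pairs that share a number in the sample descriptions, by -0.94 to -0.41 on the log2 scale.

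Tyrobp, the adaptor that carries the TREM2 signal, did not pass the test in either donor comparison. The donor libraries held 461 to 720 normalised counts with a median of 641. GVHD host libraries had 366, 621, 556 and 541, and TCD host libraries 414, 411 and 561. All 3 groups overlapped. The log2 fold change was 0.22 ± 0.12 in donor macrophages against GVHD host microglia, with a 95% interval of -0.05 to 0.48 (limma, adjusted p = 0.183), and 0.34 ± 0.13 against TCD host microglia (limma, adjusted p = 0.0653). The second value was called in 5 of 28 alternative analyses, including that without TCD host library 1 (0.44, adjusted p = 0.0420) and that without donor library 5 (0.39, adjusted p = 0.0270).

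The ratio of receptor to adaptor was lower in every donor library than in any host library, as was Trem2 alone. How many other gene pairs separate in this way was not computed. The ratio of the Trem2 to the Tyrobp value was 0.957 to 1.77 in donor libraries (median 1.26), 2.21 to 3.07 in GVHD host libraries (median 2.28) and 2.38 to 3.31 in TCD host libraries (median 2.63). A ratio within a library does not depend on its total. Per kilobase of coding transcript, the median Tyrobp level was 1137 in donor macrophages against 717 for Trem2, and in GVHD host microglia it was 973 against 1167. Per kilobase of all merged exons Tyrobp was above Trem2 in every group.

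Siglec1, sialoadhesin or CD169, is a macrophage lectin without an inhibitory motif that is known to be induced by type I interferon. Its value was 11.8 to 27.9 normalised counts in donor libraries, with a median of 16.4. GVHD host libraries had 2.34, 0.948, 1.72 and 1.25, and TCD host libraries 3.63, 0.966 and 0.362. The lowest donor library was above the highest host library. The log2 fold change was 2.92 ± 0.19 against GVHD host microglia (limma, adjusted p = 1.37e-07) and 3.12 ± 0.21 against TCD host microglia (limma, adjusted p = 2.18e-07). Within the host cells, the highest value was that of TCD host library 1, the library with raised border-associated macrophage markers. Those macrophages are known to express Siglec1. In donor libraries the same markers summed to 1132 to 1508, against 89.6 to 155 in GVHD host libraries, and their part in the Siglec1 difference was not tested.

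Siglece encodes Siglec-E, a main ITIM-bearing Siglec of mouse myeloid cells. Donor libraries 1 to 6 had 240, 147, 142, 149, 230 and 158 normalised counts. GVHD host libraries had 164, 135, 160 and 116, and TCD host libraries 222, 134 and 126. Donor libraries 1 and 5 and TCD host library 1 were high, and all groups overlapped. Library 1, which is API_183, was the highest of each sorted group. The difference from GVHD host microglia was 0.32 ± 0.15 on the log2 scale (limma, adjusted p = 0.0984). Donor cells were the higher in 4 of 4 pairs, and with the pair as a block, in a fit of the GVHD mice only, the value was 0.39 and passed the test (limma, adjusted p = 0.0335). It passed also without GVHD host library 3 (0.43, adjusted p = 0.0479). Against TCD host microglia the difference was 0.24 ± 0.16 (limma, adjusted p = 0.271).

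Cd33, a Siglec gene whose human counterpart is a risk locus for Alzheimer's disease, had nearly equal means in the 3 groups. Donor libraries ran from 194 to 268 with a median of 223, GVHD host libraries had 281, 205, 232 and 169, and TCD host libraries 284, 199 and 182. The means were 224 ± 29.5 (SD, n = 6), 222 ± 47.1 (SD, n = 4) and 222 ± 54.4 (SD, n = 3). The donor-host log2 fold change in GVHD mice was 0.05 ± 0.15 with a 95% interval of -0.27 to 0.37 (limma, adjusted p = 0.813). Donor cells were higher in 2 of 4 pairs and lower in the other 2.

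Sirpb1c gave the largest fold change of the 8 members in both donor comparisons. Donor libraries ran from 52.5 to 221 normalised counts with a median of 119. GVHD host libraries held 4.48, 0.431, 0.382 and 2.39, and TCD host libraries 0.252, 0.181 and 0.472. The lowest donor library stood above every host library. On the log2(value + 1) scale, which understates the change of a gene this low in hosts, donor macrophages were higher by 5.64 ± 0.42 than GVHD host microglia (limma, adjusted p = 3.78e-07) and by 6.60 ± 0.46 than TCD host microglia (limma, adjusted p = 2.59e-07). With a pseudocount of 5 in place of 1 these differences were 4.22 and 4.58, their lowest over the alternatives. Among GVHD host libraries, library 1, with the highest Sirpb1c value, also had the highest summed value of marrow-derived macrophage markers, 1019 against 504 to 685 in the other 3. TCD host library 1, with a marker sum of 924, had a Sirpb1c value of 0.252. The part of such cells in the host values was not tested.

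The values of the other copies moved with it, but the split of reads among the copies is uncertain, so they are not independent results. Sirpb1b ran from 36.4 to 71.4 in donor libraries and from 0 to 1.30 in GVHD host libraries (5.27 ± 0.25; limma, adjusted p = 1.26e-08), and Sirpb1a from 7.21 to 47.3 and from 0 to 1.36 (4.18 ± 0.44; limma, adjusted p = 7.88e-06). Summed into 1 feature, the 3 copies gave 96.0 to 340 in donor libraries, 0.382 to 7.14 in GVHD host libraries and 0.181 to 1.04 in TCD host libraries. The log2 fold change of the sum was 6.06 against GVHD hosts and 7.02 against TCD hosts, both called (limma, adjusted p = 2.64e-07 and 1.98e-07).

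Sirpa, the inhibitory CD47 receptor, varied more within donor cells than any other member that was abundant in all groups. Donor libraries 1 to 6 held 1677, 588, 588, 584, 1428 and 803 normalised counts. GVHD host libraries held 1553, 1035, 1335 and 1170, and TCD host libraries 2329, 1398 and 1209. Donor libraries 2, 3, 4 and 6 were below every host library, while donor libraries 1 and 5 were within the host range. In each sorted group the highest value was that of library 1, which is API_183. The log2 fold change against GVHD host microglia was -0.49 ± 0.24 (limma, adjusted p = 0.126). Without donor library 5 it was -0.66 and passed the test (adjusted p = 0.00711), as it did with library totals made equal (-0.67, adjusted p = 0.0369). Against TCD host microglia it was -0.75 ± 0.26 (limma, adjusted p = 0.0414), but this call held in only 14 of 28 alternatives. It was lost on leaving out any 1 of TCD host libraries 1, 2 and 3, donor libraries 2, 3, 4 and 6, or GVHD host libraries 2 and 4 (adjusted p = 0.0540 to 0.140), and in the API_197 libraries alone (-0.80, adjusted p = 0.0735).

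In donor libraries 1 and 5 the ratio of Sirpb1c to Sirpa was 0.0659 and 0.0367. In donor libraries 2, 3 and 4 it was 0.287, 0.376 and 0.218, and in donor library 6 it was 0.126. No host library exceeded 0.00289. Donor library 1 is the API_183 donor library, and donor library 5 is the deepest of the sorted libraries. How far either bears on these values was not tested.

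Cd47, the ligand of SIRPα, is present on most cells and is known as a signal against engulfment. Donor libraries 1 to 6 held 256, 238, 276, 247, 164 and 199 normalised counts. GVHD host libraries held 216, 161, 165 and 140, and TCD host libraries 196, 120 and 133. Donor libraries 5 and 6 were within the GVHD host range. Donor cells had 1.38 times the GVHD host level, 0.46 ± 0.14 on the log2 scale (limma, adjusted p = 0.0179), and were higher in 3 of 4 pairs. With the pair as a block, in GVHD mice only, the value was 0.38 and missed the threshold (limma, adjusted p = 0.0739), as it did without GVHD host library 4 (0.41, adjusted p = 0.0656). With library totals made equal it was 0.29 and was not called (limma, adjusted p = 0.119). Against TCD host microglia it was 0.70 ± 0.15 (limma, adjusted p = 0.00305), called in 28 of 28 alternatives, and 0.54 with totals made equal (adjusted p = 0.0138).

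**Figure D2:**
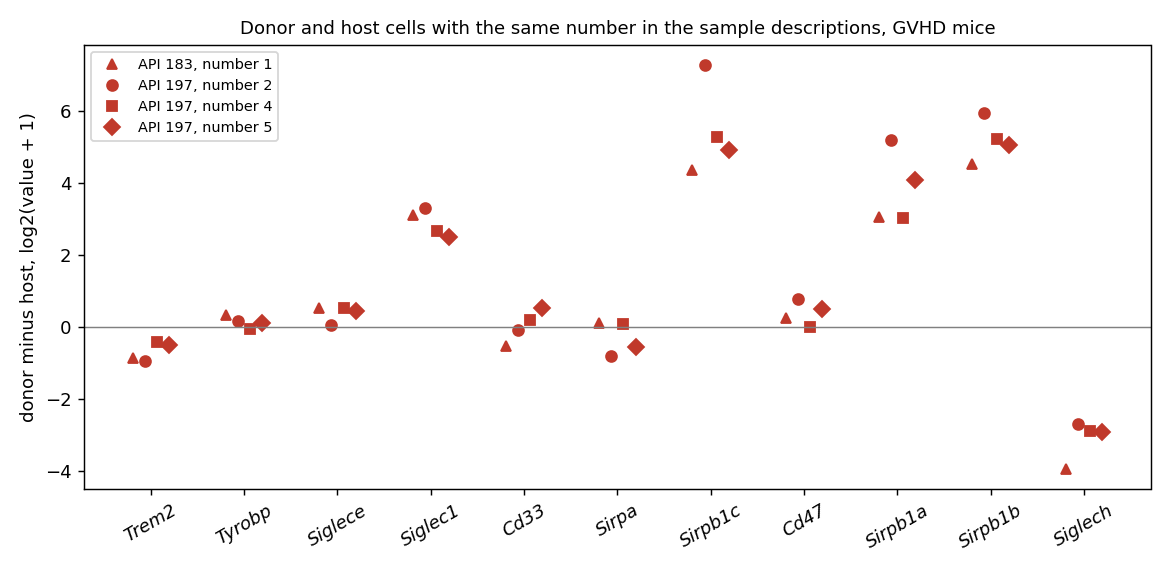
Donor minus host difference, in log2(value + 1), for the 4 donor and host libraries of GVHD mice that share an API code and a number in their descriptions, for the 8 members and for Sirpb1a, Sirpb1b and Siglech. All 4 pairs are below 0 for Trem2 and Siglech and above 0 for Siglece, Siglec1 and the Sirpb1 genes, and the pairs fall on both sides of 0 for Tyrobp, Cd33, Sirpa and Cd47.

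Set against TCD host microglia, donor macrophages had 3 members called higher (Siglec1, Sirpb1c and Cd47) and 2 called lower (Trem2 and Sirpa), with a background of 37% of genes called (18.4% higher, 18.6% lower). An unadjusted p under 0.05 was found for 6 of 8 members and for 44.7% of all genes. The groups did not overlap for Trem2 (lower), Siglec1 and Sirpb1c (higher), as for 15.1% and 14.4% of all genes in those directions. This comparison shares the donor libraries with the one inside GVHD mice. Within the API_197 libraries, the donor minus GVHD host differences were -0.68 for Trem2, 2.84 for Siglec1 and -0.65 for Sirpa on the log2 scale. The single pair of API_183 libraries gave -0.87, 3.11 and 0.11.

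Per kilobase of coding transcript, the members ordered in donor macrophages as Tyrobp (median 1137, range 818 to 1276), Trem2 (717, 575 to 891), Cd47 (191, 129 to 218) and Sirpa (191, 160 to 460), then Cd33 (114, 98.9 to 137), Siglece (83.1, 76.7 to 130), Sirpb1c (79.4, 35.0 to 148) and Siglec1 (2.83, 2.03 to 4.82). The ranges of Tyrobp and Trem2 overlapped, and the range of Cd47 overlapped those of Sirpa and Sirpb1c. The range of Cd33 overlapped those of Cd47, Siglece and Sirpb1c, and that of Siglece those of Cd47 and Sirpb1c. In GVHD host microglia the order was Trem2 (1167, 1050 to 1277), Tyrobp (973, 649 to 1100), Sirpa (344, 284 to 426), Cd47 (128, 110 to 170) and Cd33 (111, 86.2 to 143), then Siglece (79.8, 63.0 to 88.9), Sirpb1c (0.940, 0.255 to 2.99) and Siglec1 (0.256, 0.164 to 0.404). There Trem2 and Tyrobp overlapped, as did Cd47 and Cd33, Cd33 and Siglece, and Sirpb1c and Siglec1, while Sirpa overlapped no other member. The order depends on the length used. Per kilobase of all merged exons, Sirpa (142) and Siglece (83.1) were above Cd47 (38.7) and Cd33 (28.7) in donor macrophages. In GVHD host microglia, Tyrobp (823) was then above Sirpa (255) and Trem2 (253), and Siglece (79.8) above Cd33 (28.1) and Cd47 (26.0).

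Resident microglia of GVHD and TCD mice were compared to ask whether the disease changes these receptors in the host's own cells. None of the 8 members was called by limma, and none had an unadjusted p under 0.05. In this comparison 0.107% of genes were called (14 of 13086, 0.0917% higher and 0.0153% lower), and 6.85% had an unadjusted p under 0.05. The 95% intervals of the log2 fold change ran from -0.35 to 0.30 for Trem2, -0.19 to 0.43 for Tyrobp, -0.36 to 0.40 for Cd33 and -0.45 to 0.29 for Siglece. Wider intervals were those of Siglec1 (-0.30 to 0.69), Sirpa (-0.87 to 0.36) and Sirpb1c (-0.11 to 2.04), and that of Cd47 was -0.12 to 0.59. Sirpb1c, at 1.92 ± 1.95 (SD, n = 4) against 0.302 ± 0.152 (SD, n = 3) normalised counts, had the largest estimate (0.96 ± 0.50; limma, adjusted p = 0.775), and GVHD host libraries 2 and 3 were within the TCD range.

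**Figure D3:**
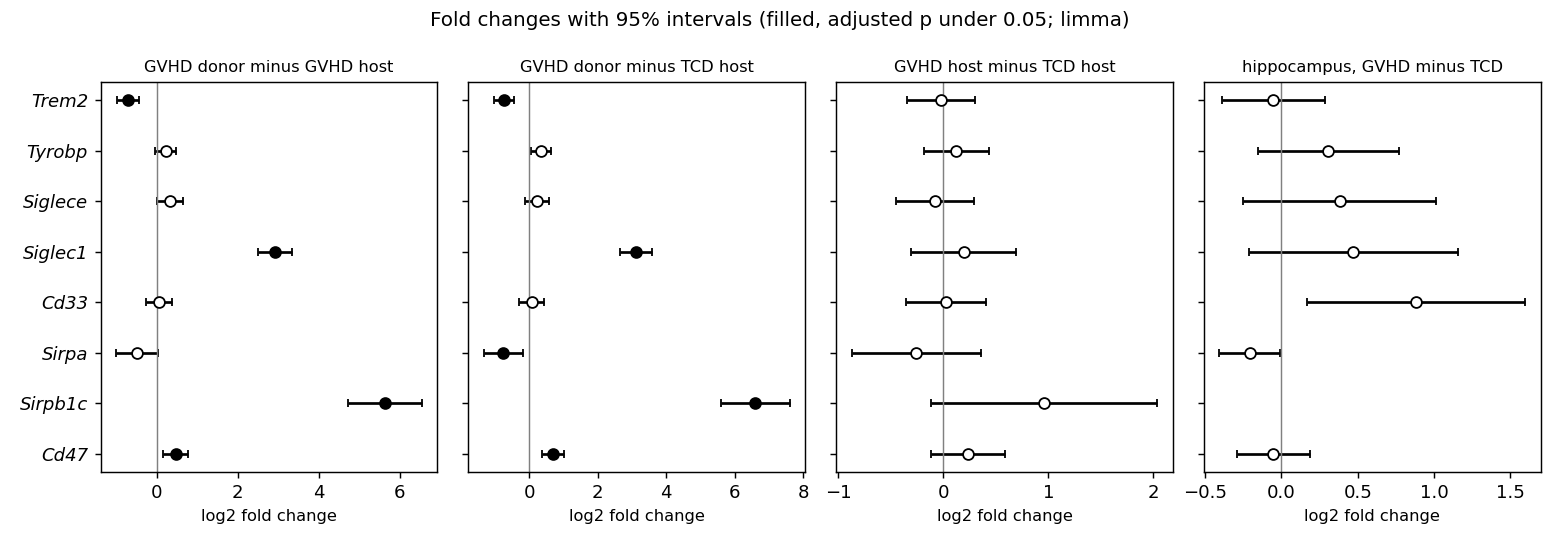
Log2 fold change of each member with its 95% interval in the 4 comparisons, on separate horizontal scales; filled points had an adjusted p under 0.05 by limma. Filled points appear only in the 2 donor panels, for Trem2, Siglec1, Sirpb1c and Cd47 in both and for Sirpa against TCD host cells.

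Other genes of these families and pathways were read from the same fits. The lists used below were chosen with earlier results of these data known. Their counts of called genes in donor against GVHD host cells stand beside a background of 19.4% of all genes higher and 19.2% lower, or 14% and 27.6% with library totals made equal. Of the 69 calls among list genes, 53 held in every alternative. Of 5 other Siglec genes tested, 3 were lower in donor macrophages than in GVHD host microglia, 1 was higher and Mag was not called. Siglech, a DAP12-coupled Siglec used as a microglia marker, had 1194 ± 189 (SD, n = 4) normalised counts in GVHD host libraries and 156 ± 49.7 (SD, n = 6) in donor libraries (-3.08 ± 0.16; limma, adjusted p = 2.43e-08). Siglecf had 54.3 ± 7.08 (SD, n = 4) in GVHD host and 4.48 ± 1.13 (SD, n = 6) in donor libraries, a difference of -3.32 ± 0.15 (limma, adjusted p = 1.12e-08), and Siglecg was lower by -1.65 ± 0.39 (limma, adjusted p = 0.00487). Cd22, an inhibitory Siglec better known from B cells, was higher at 74.3 ± 34.5 (SD, n = 6) against 18.9 ± 5.04 (SD, n = 4), by 1.93 ± 0.19 (limma, adjusted p = 5.11e-06). The summed B-cell markers (4 of 5 listed) were 600 to 726 in donor and 595 to 852 in GVHD host libraries.

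Siglecf was the one Siglec gene whose GVHD and TCD host libraries did not overlap, at 45.5 to 62.6 against 31.6 to 43.1 normalised counts. Its log2 fold change was 0.63 ± 0.18 and was not called (limma, adjusted p = 0.302). Groups that do not overlap were seen for 6.55% of all genes in that comparison, 3.57% higher and 2.98% lower.

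Among 14 other receptors and adaptors coupled through DAP12 or the FcRγ chain, 8 were higher and 1 was lower in donor macrophages than in GVHD host microglia. They included Trem1, an amplifier of inflammation in myeloid cells, which ran from 4.59 to 72.8 in donor and from 0.379 to 1.52 in GVHD host libraries (3.23 ± 0.60; limma, adjusted p = 0.000869). Klrk1, which encodes the receptor NKG2D, was higher by 3.50 ± 0.33 (limma, adjusted p = 3.06e-06), and Cd300ld and Pilrb2 were higher by 4.21 ± 0.42 and 2.73 ± 0.43. The gene called lower was Siglech. In donor libraries 2, 3 and 4 the values of Trem1 were 22.7, 72.8 and 23.7 and those of Treml4 were 137, 58.1 and 56.1. In donor libraries 1, 5 and 6 they were lower, at 6.10, 4.59 and 9.74 for Trem1 and 8.37, 4.74 and 22.8 for Treml4. The first 3 are also the donor libraries with the lowest Sirpa and the highest Tyrobp and Sirpb1c values. Dendritic cell markers (5 of 6 listed) summed to 88.0, 183.2 and 139 in donor libraries 2, 3 and 4, to 44.4, 21.8 and 44.3 in donor libraries 1, 5 and 6, and to 5.86 to 19.0 in host libraries. Their part in these values was not tested. Donor library 1 had the highest neutrophil sum, 576, with a Trem1 value of 6.10.

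**Figure D4:**
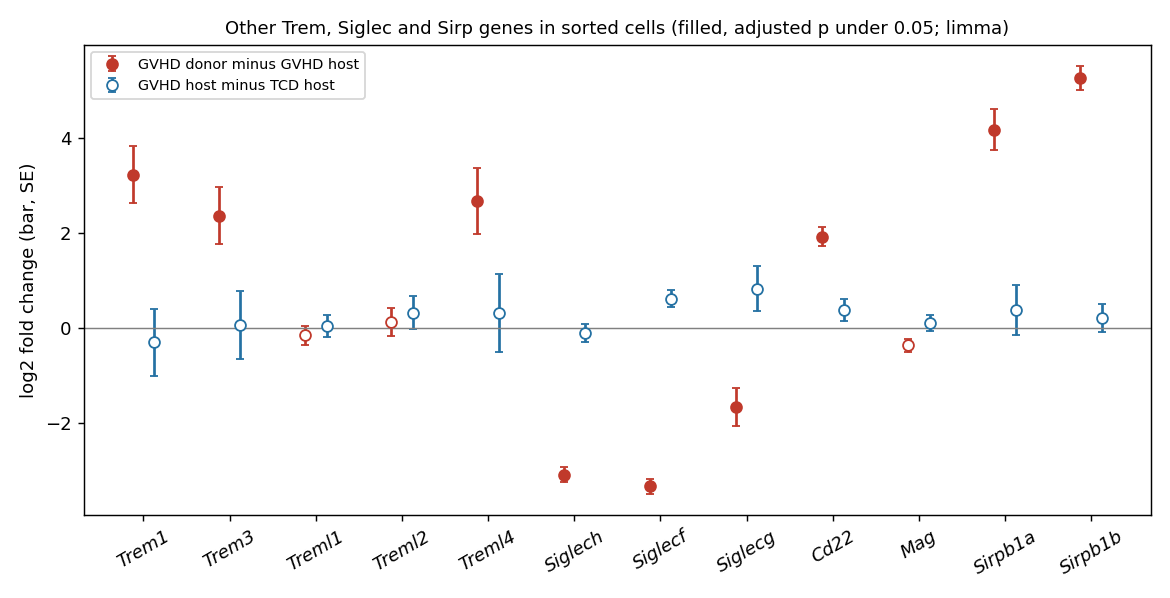
Log2 fold change (bars, SE) of other Trem, Siglec and Sirp genes in sorted cells, for GVHD donor minus GVHD host and for GVHD host minus TCD host; filled points had an adjusted p under 0.05 by limma. Trem1, Trem3, Treml4, Cd22 and both Sirpb1 copies are filled above 0, Siglech, Siglecf and Siglecg are filled below 0, and no host-host point is filled.

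Of 6 ligands, sheddases and partners of TREM2, 3 were higher and 2 lower in donor macrophages than in GVHD host microglia. Apoe, a lipid carrier and TREM2 ligand, had 69531 ± 12591 (SD, n = 6) normalised counts in donor and 3851 ± 1265 (SD, n = 4) in GVHD host libraries (4.24 ± 0.22; limma, adjusted p = 2.27e-08). Lgals3, encoding the lectin galectin-3, was higher by 3.97 ± 0.30 and Plxna1 by 2.13 ± 0.37. Adam10, a protease that releases the TREM2 ectodomain, was lower at 354 ± 32.4 (SD, n = 6) against 664 ± 51.1 (SD, n = 4), by -0.90 ± 0.09 (limma, adjusted p = 5.56e-06). Adam17, another TREM2 sheddase, was lower by -0.29 ± 0.08 (limma, adjusted p = 0.0114), a call that was lost with the pair as a block (highest adjusted p = 0.102 over the alternatives).

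Of 6 other Sirp genes and CD47 partners, 3 were higher (Sirpb1a, Sirpb1b and Thbs1) and 2 lower in donor macrophages than in GVHD host microglia. Thbs1, whose product thrombospondin-1 binds CD47, held 122 ± 79.8 (SD, n = 6) against 10.4 ± 1.86 (SD, n = 4), a difference of 3.19 ± 0.41 (limma, adjusted p = 4.33e-05). Itgb3, the β3 integrin chain, was lower by -3.07 ± 0.31 (limma, adjusted p = 5.44e-06). Thbs2 was the one pathway gene called between host cells, at 0.780, 2.46, 1.66 and 2.04 in GVHD host libraries and 9.60, 7.06 and 5.92 in TCD host libraries (-1.67 ± 0.23; limma, adjusted p = 0.0134). That call was lost in 6 of 28 alternatives, among them the API_197 libraries alone and the fit without TCD host library 2 (limma, highest adjusted p = 0.422 over the alternatives). Both replicate blocks were also among them, but GVHD and TCD libraries come from different mice, which no number pairs.

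Downstream of the receptors the differences went both ways. Of 21 kinases and adaptors used by ITAM receptors, 6 were higher and 3 lower, led by Plcg1 (-1.70 ± 0.17) and Vav3 (2.64 ± 0.33), with Btk at -0.38 ± 0.08. Syk, the kinase recruited by DAP12, was higher by 0.60 ± 0.19 (limma, adjusted p = 0.0220), a call kept in 22 of 29 alternatives. That call was lost without donor library 1, without GVHD host library 1 or 2, and in the API_197 libraries alone. Equal library totals, omission of the API covariate and the title number as replicate block also lost it (limma, highest adjusted p = 0.149 over the alternatives). Of 10 phosphatases and adaptors used by ITIM receptors, 6 were higher and 2 lower. Inpp5d, the lipid phosphatase SHIP1 that opposes DAP12 signalling, was lower by -0.75 ± 0.10 (limma, adjusted p = 9.45e-05) and Pag1 by -1.97 ± 0.15, while Dok3 and Dok2 were higher by 1.25 ± 0.17 and 2.78 ± 0.41. Ptpn6, encoding SHP-1, was not called (0.16 ± 0.10; limma, adjusted p = 0.211).

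Other inhibitory myeloid receptors showed 5 of 11 higher and 4 lower. Cd72 was higher by 2.43 ± 0.08, Clec12a by 5.67 ± 0.28 and Pirb, an MHC class I receptor, by 2.05 ± 0.22, whereas Havcr2, which encodes TIM-3, was lower by -1.82 ± 0.20. Clec12a is also among the markers of marrow-derived macrophages used above. Of 19 genes of sialic acid synthesis, transfer and removal, which make or trim the glycans Siglecs bind, 6 were higher and 8 lower. St8sia4, a polysialyltransferase, was higher by 3.19 ± 0.21 and Cmah, which makes N-glycolylneuraminic acid, by 4.48 ± 0.35, with St3gal1 higher by 2.73 ± 0.23 and St3gal2 lower by -1.74 ± 0.14. Of 13 type I interferon response genes, 7 were higher and none was lower, where 19.4% of all genes were higher and 19.2% lower, with Bst2 at 1.67 ± 0.11 and Irf7 at 2.00 ± 0.29.

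Between GVHD and TCD host microglia, no gene of these lists other than Thbs2 was called by limma. Of the same 13 interferon genes, 4 had an unadjusted p under 0.05 there, as did 6.85% of all genes. Bst2 and Oasl2 were at 0.43 ± 0.13 and 0.90 ± 0.30 (limma, adjusted p = 0.338 and 0.455). Among inhibitory receptors, Cd300lf was at 1.67 ± 0.36 (limma, adjusted p = 0.138) and Pilra at 0.84 ± 0.25 (limma, adjusted p = 0.345).

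Genes with the most similar profile to each member were found by the root mean square difference of mean-centred log2 values over the 13 sorted libraries. For Sirpb1c they were Klra2 (0.411), Clec12a (0.464) and Plbd1 (0.537), against 3.10 for the median gene. For Siglec1 they were Tgfbi (0.267), Arhgef10 (0.308) and Sept9 (0.321), and for Trem2 Zfp772 (0.128), Mgat4a (0.133) and Sccpdh (0.135). Sirpa was most like Bicd2 (0.128), Arhgap4 (0.131) and Pigt (0.149), and Cd47 most like Tor3a (0.155), Ddx58 (0.167) and Trim30d (0.173). The nearest to Tyrobp were Naa38 (0.0660), Gm15387 (0.0671) and Etfb (0.0740). Those to Siglece were Sin3a (0.0722), Unc93b1 (0.0923) and Rabep2 (0.0955), and to Cd33 Nadsyn1 (0.148), Hdhd5 (0.152) and Man1c1 (0.153). A flat profile would differ from a member by the member's own spread, so differences of different members are not on 1 scale. That spread was 3.08 for Sirpb1c, 1.51 for Siglec1, 0.609 for Sirpa and 0.389 for Trem2. It was 0.370 for Cd47, 0.320 for Siglece, 0.300 for Tyrobp and 0.230 for Cd33.

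In whole hippocampus none of the 7 listed members was called between GVHD and TCD mice, where 0.479% of genes were (0.319% higher, 0.16% lower). In such bulk tissue fewer cells of a type and less RNA per cell cannot be told apart. Of the 7, 2 had an unadjusted p under 0.05 (Cd33 and Sirpa), against 17% of all genes. Trem2 stood at 13.3, 11.5 and 9.68 normalised counts in GVHD and 13.3, 12.4 and 10.2 in TCD libraries, with a log2 fold change of -0.05 ± 0.15. Tyrobp stood at 8.48, 10.7 and 9.91 against 10.6, 7.36 and 5.56 (0.31 ± 0.20; limma, adjusted p = 0.481). Both overlapped between the groups.

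**Figure D5:**
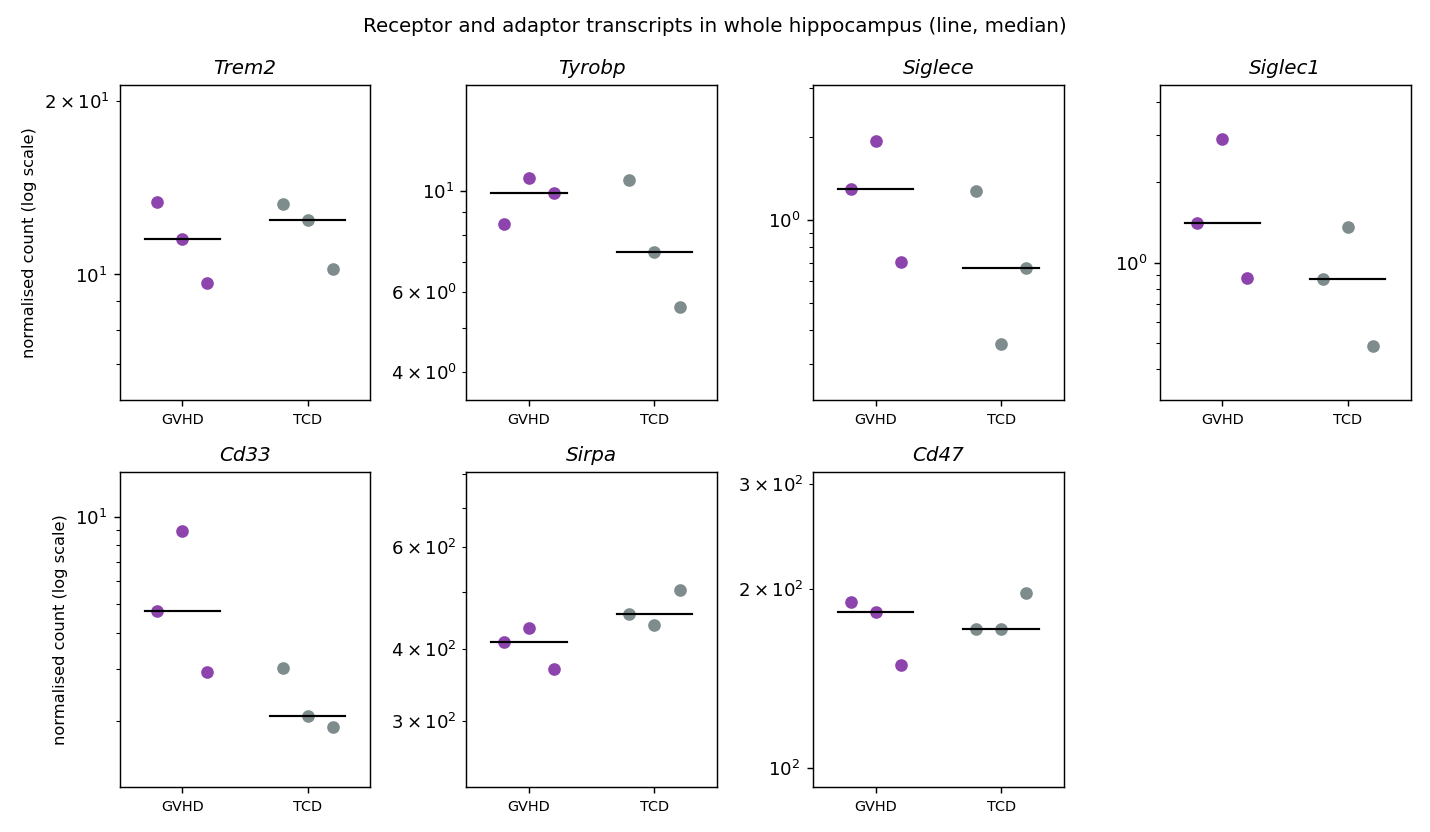
Normalised count (log scale) of the 7 listed members in each hippocampus library of the GVHD and TCD groups; lines are group medians. The groups overlap for every member except Sirpa, which is lower in all 3 GVHD libraries.

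Sirpa, which neurons also express strongly, and Cd47 were the abundant members in this tissue. Sirpa had 411, 434 and 369 in GVHD and 458, 439 and 505 in TCD libraries, and its groups did not overlap, as for 24% of all genes (13.2% lower, 10.8% higher). The fold change was -0.21 ± 0.09 on the log2 scale (limma, adjusted p = 0.275). Cd47 had 190.2, 182.97 and 149 against 171, 172 and 196.9, with -0.05 ± 0.11 (limma, adjusted p = 0.843). Per kilobase of coding transcript the GVHD medians were 113 for Sirpa and 144 for Cd47, against 10.7 for Trem2 and 17.6 for Tyrobp. Per kilobase of all merged exons Sirpa was above Cd47, at 83.7 against 29.2, so their order depends on the length used.

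The Siglecs were low in hippocampus. Cd33 had 4.75, 8.91 and 2.93 in GVHD and 3.02, 2.08 and 1.896 in TCD libraries, the largest estimate of the 7 (0.88 ± 0.31; limma, adjusted p = 0.207). With array weights, which give less weight to libraries far from the fit, it was 0.98 and passed (limma, adjusted p = 0.0436), the one of 15 alternatives in which it did. Without GVHD library 2 it was 0.53 (limma, adjusted p = 0.397), and without GVHD library 3 it was 1.195 (limma, adjusted p = 0.216). Siglec1 had 1.40, 2.89 and 0.880 against 0.872, 1.37 and 0.489 (0.47 ± 0.30; limma, adjusted p = 0.468), and Siglece 1.30, 1.93 and 0.704 against 1.28, 0.356 and 0.673 (0.38 ± 0.28; limma, adjusted p = 0.522). GVHD library 2 was the highest for Cd33, Siglec1, Siglece and Tyrobp. In the same library the summed marrow-derived macrophage markers (7 of 9 listed) were 313, against 108 and 180 in the other GVHD and 76.1 to 119 in the TCD libraries. Its microglia marker sum was 312, the lowest of the 6, and its Siglech value was 0.341 against 6.48 to 9.20 in the other 5. The part of these cells in the member values was not tested.

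Choroid plexus markers, all 5 called higher in GVHD hippocampus, summed to 978 to 3462 in GVHD and 11.2 to 67.8 in TCD libraries, and their part in the member values was not tested. Thbs1, the CD47-binding thrombospondin, had 6.06 ± 1.81 (SD, n = 3) against 1.84 ± 0.432 (SD, n = 3) in hippocampus and just missed the threshold (1.29 ± 0.22; limma, adjusted p = 0.0529). GVHD hippocampus libraries 1, 2 and 3 held Thbs1 at 5.94, 4.31 and 7.92. In the same order their choroid plexus sums were 3011, 978 and 3462, and their marrow-derived macrophage sums 180, 313 and 108. The part of either cell type in the Thbs1 values was not tested. Of the pathway lists, no gene was called in hippocampus, and 5 of 11 type I interferon genes had an unadjusted p under 0.05, where 17% of all genes did, with Bst2 at 1.31 ± 0.34 (limma, adjusted p = 0.113).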

How the data were processed

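RNA was measured in 13 libraries of sorted brain cells and 6 of hippocampus, per the labels from stranded libraries of total RNA. The authors deposited normalised counts, a signal per gene whose scaling method and gene selection are not given in the sources used here. The submitters' processing notes name cutadapt 1.9, STAR 2.5.2a, RSEM 1.2.30 and GRCm38, without their roles. In each sorted library 69.3% to 73.8% of values, and in each hippocampus library 82.9% to 83.9%, were whole multiples of the value taken as 1 read (tolerance 0.02), so whole counts were not recovered. Of values under 100 reads, 100% were whole hundredths of that value in every library. Fractional counts could thus be formed, but no count test was run on them. Depth estimates are the total over the value of 1 read. Genes were matched by identifier to the GENCODE annotation of GRCm38.

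Values were analysed as log2(value + 1), keeping genes that reached 1 in 3 or more libraries (13086 sorted, 14404 hippocampus). Linear models were fitted with limma 3.58.1 under R 4.3.3, letting the prior variance follow the mean level. Tests were two-sided, and p-values were adjusted by the Benjamini-Hochberg method across every gene in the fit. The sorted cells were fitted in 1 model of 13 libraries with the API code as covariate, the hippocampus with groups only. Errors after ± are SE for fold changes and SD for values.

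Members and lists were chosen with earlier results of these data known. The named genes are all members, up to 4 genes with the smallest p per pathway list and comparison, every called Siglec or Sirp relative, and the 3 most alike profiles per member; Adam17, Syk, Ptpn6, Trem1 and Treml4 were added for their roles after values were seen. API codes and description numbers pair 4 donor with 4 GVHD host libraries. Deviations from group means of the 3 checkable pairs correlated at 0.254 to 0.308, those of the 12 other combinations at -0.336 to 0.290, so the block is given where it changes a call. Alternatives covered the pseudocount, filter, scaling, variance trend, array weights, API covariate, libraries fitted, replicate blocks and leaving out each library. The block within GVHD mice, equal library totals and the summed Sirpb1 copies were added after seeing the data. Protein sequences were not used here.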

Additional observations from a re-analysis of the deposited data

Results flagged for a closer look

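Siglech, the DAP12-coupled microglia Siglec, had a value of 60.8 normalised counts in GVHD donor library 1, far from the 154 to 206 of the other 5 donor libraries. It was picked out because its gap to the nearest library took most of the range of the group. Of 28 groups of values examined in this way, 1 was marked, and chance alone marks about 1 in 20. The same library is the only donor library with the code API_183 and had the highest neutrophil marker sum of the donor libraries, 576. Siglech was also lowest in the API_183 library of both host groups. It was 944 against 1153 to 1345 in GVHD host libraries, and 950 against 1313 and 1410 in TCD host libraries. The neutrophil sums of those API_183 libraries were 0.468 in GVHD host and 102 in TCD host cells. The part of the code or of neutrophils in the Siglech values was not tested.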

How the results depend on the processing

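Trem2, Siglec1 and Sirpb1c were called in all 29 alternatives of donor against GVHD host cells and all 28 of donor against TCD host cells, with log2 fold changes of -0.88 to -0.57, 1.80 to 3.54 and 4.22 to 6.56 in the first. Members called numbered 3 to 5 and 4 to 6 in these comparisons and 0 in every alternative between host groups. In hippocampus 1 member (Cd33) was called with array weights and 0 in the other alternatives. The count of all genes called between host groups, 14, became 28 with array weights, 1 in API_197 libraries alone, 0 with only the 2 groups fitted, 2 with the title number as replicate block, 0 with the description number as replicate block, and 6 to 28 with 1 library left out. That of hippocampus, 69, became 39 with quantile normalisation, 0 without the variance trend, 990 with array weights, 16 with the title number as replicate block, and 0 to 123 with 1 library left out. The title numbers did not pair the samples. The description block changed no call of a member other than Cd47, Siglece and Sirpa (-0.60 against TCD hosts, limma, adjusted p = 0.131). Between GVHD and TCD libraries, which come from different mice, neither block stands for a shared animal. With library totals made equal, an alternative chosen after seeing the data, the call of Cd47 against GVHD hosts was lost and that of Sirpa gained, and the share of higher calls among all called genes went from 50.1% to 33.7% against GVHD hosts, from 49.7% to 35.7% against TCD hosts and from 66.7% to 80.8% in hippocampus, where it was 76.9% with quantile normalisation. The causes were not tested.

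Only uncalled values changed sign. Between host groups, Trem2 was 0.0323 with array weights and 0.10 in API_197 libraries, and -0.17 to 0.13 with 1 library left out. Siglece was 0.0202 and 0.0626, and -0.18 to 0.0247, in the same settings. With 1 library left out, Tyrobp ran from -0.0470 to 0.23, Siglec1 from -0.0595 to 0.45 and Cd33 from -0.0782 to 0.17. Cd33 in donor cells was -0.0665 against GVHD hosts and -0.0341 against TCD hosts with the title number as replicate block, -0.12 and -0.0855 with equal library totals, and -0.0573 to 0.20 and -0.0266 to 0.25 with 1 library left out. In hippocampus Trem2 was 0.0174 with array weights, 0.0190 with equal library totals and -0.16 to 0.0555 with 1 library left out, and Cd47 was 0.0472 with quantile normalisation, 0.050 with array weights, 0.0261 with equal library totals and -0.12 to 0.0557 with 1 library left out. Of 69 pathway genes called between donor and GVHD host cells 53 kept their call in every alternative, as did 51 of 66 against TCD hosts. Many values of Siglec1 and the Sirpb1 genes in host cells, and of Siglec1 and Siglece in hippocampus, were near or under the pseudocount of 1. This limits how far their fold changes can be read.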
